A study of Mus musculus with 24 samples.

Results

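Hbegf, Areg, Ereg and Vegfa encode secreted growth factors, and their mRNA was followed in mouse bone marrow-derived macrophages (BMDMs) that were stimulated with LPS, a bacterial ligand of the receptor TLR4. The 4 genes are the rows of the deposited expression table that carry these symbols, among 24273 genes in all, and every one of the 24 libraries was used. BMDMs from C57BL/6 mice were either LysM-Cre, the controls, or FosKO, in which LysM-Cre was combined with floxed alleles of Fos (LysM-Cre Fos-fl/fl). LysM-Cre is a Cre recombinase placed in the Lyz2 locus and is active in myeloid cells. Cells of both genotypes were left without LPS (0 h) or received LPS at 100 ng/ml for 0.5, 1 or 2 h, with 3 libraries in each of the 8 groups. The paper describes the control mice as carrying a single floxed Fos copy, which the series text does not mention, so whether the controls had it is uncertain. The paper calls the libraries biological replicates, but no label says whether the 3 of a group came from separate mice, so p-values measure the spread between these libraries.

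Hbegf (heparin-binding EGF-like growth factor), Areg (amphiregulin) and Ereg (epiregulin) are EGF-type ligands. They are made as membrane-anchored precursors, are cut free at the cell surface by ADAM metalloproteases, and bind the ErbB receptors, of which the EGF receptor is the best known. Vegfa (vascular endothelial growth factor A) signals through the receptors Flt1 and Kdr and drives growth of blood vessels, and macrophages are known to release it in hypoxia and inflammation. The genotype comparison asks how their mRNA depends on Fos, a subunit of the AP-1 transcription factor that is itself induced within minutes of LPS.

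Values are log2 values, normalised by the authors before they were deposited, and a difference of 1 is a doubling on that scale. They resemble a regularised log, which pulls genes with few reads towards their own mean, so that differences in such genes are understated. These values do not give the depth of single libraries, and the paper states a typical yield only. Differences were tested only between groups for the same gene. Summed marker levels and places near the bottom of the table set genes side by side, as a description only. All comparisons come from a single limma fit over the 13901 genes that passed a filter on low values, with Benjamini-Hochberg adjustment over those genes, and calls were made below an adjusted p of 0.05. Hbegf, Areg and Vegfa passed the filter, which asked for at least 5 on the linear scale in at least 3 libraries. Areg was at 6.07 to 6.22 on that scale without LPS, where it stood at its lowest level. Passing the filter thus does not show that Areg was detected. Ereg did not pass, and its values are given as a description.

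The libraries carried the markers of macrophages. Adgre1, Cd68, Csf1r and Itgam had medians between 14.38 and 15.17 over the 24 libraries, Fcgr1 of 12.86, Mertk of 10.32 and Lyz2 of 13.82. All 7 of these markers were called between the genotypes at 0 h (limma), 4 higher and 3 lower in FosKO, where 35.4% of all genes were called (2708 higher and 2211 lower). Mertk was higher by 0.89 to 1.65, Fcgr1 by 0.63 to 0.85 and Cd68 by 0.14 to 0.22 over the 4 times. Itgam was lower by 0.19, 0.25 and 0.18 at 0, 0.5 and 1 h. Adgre1 was lower by 0.15 and 0.13 at 0 and 1 h, and Csf1r by 0.14 at 0 h. None of these 3 genes was called at its other times. The 1 h call of Adgre1 did not hold under several alternatives, among them no filter (-0.13) and the high 18S libraries (-0.12). The 0 h calls of Adgre1 and Csf1r did not hold without FosKO replicate 2, nor did that of Adgre1 without LysM-Cre replicate 3. The part of these shifts in the differences below was not tested. Fos mRNA does not check the FosKO label: in LysM-Cre it had means of 11.11, 13.52, 11.15 and 9.52 at 0, 0.5, 1 and 2 h, while under the label FosKO its means were 12.60, 12.75, 12.78 and 12.80. Which part of Fos was deleted relative to the reads is not given by these values. Lyz2, whose locus holds Cre, was higher in the libraries labelled FosKO at all 4 times, by 4.89 to 5.17. The groups thus differ in Lyz2 mRNA too, and whether they differ at the locus was not tested. An effect of such a difference and an effect of the floxed Fos alleles cannot be told apart with these groups. In 5 libraries the 18S ribosomal RNA gene Rn18s-rs5 was at 16.65 to 17.00, against 18.57 to 19.39 in the remaining 19. The low set had, at 0.5 h, replicate 3 of LysM-Cre with replicate 1 of FosKO, and, at 1 h, replicates 2 and 3 of LysM-Cre with replicate 1 of FosKO. Differences at those times are therefore also given within each set.

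Hbegf rose after LPS in both genotypes and peaked at 1 h, and the peak was lower in the libraries labelled FosKO. The gene is ENSMUSG00000024486, protein coding, on the minus strand of chromosome 18 between positions 36504927 and 36515805 (GRCm38). Its values in LysM-Cre replicates 1, 2 and 3 were 6.24, 6.05 and 6.16 without LPS, 6.81, 6.82 and 6.87 after 0.5 h, 7.87, 7.86 and 7.68 after 1 h and then 6.45, 6.35 and 6.42 after 2 h. In FosKO they were 6.08, 6.06 and 5.79 at 0 h, 6.59, 6.68 and 6.89 at 0.5 h, 7.02, 6.94 and 7.08 after 1 h, then 6.03, 5.85 and 6.01 after 2 h. The genotypes overlapped at 0 h and 0.5 h, and every LysM-Cre library lay above every FosKO library at 1 h and at 2 h.

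The difference at 1 h was a fall of 1.73-fold in FosKO (log2 difference -0.79 ± 0.09, SE of the fit; limma, adjusted p = 6.18e-07). At 2 h Hbegf was 1.36-fold lower in FosKO (-0.44 ± 0.09, adjusted p = 0.000341). At 0 h the difference was -0.17 (95% interval -0.36 to 0.01, adjusted p = 0.142), and at 0.5 h it was -0.11 (-0.30 to 0.07, adjusted p = 0.339). The result at 1 h had the same direction in both 18S sets, at -0.86 among high libraries (2 FosKO, 1 LysM-Cre) against -0.75 among low libraries (1 and 2). The corresponding values after 0.5 h were -0.03 and -0.28. As these are bulk samples, fewer cells that express a gene and less RNA per cell cannot be told apart.

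In LysM-Cre, Hbegf was 0.68 ± 0.09 higher at 0.5 h than at 0 h (limma, adjusted p = 1.3e-05), 1.66 ± 0.09 higher at 1 h (adjusted p = 2.59e-12), and still 0.26 ± 0.09 higher at 2 h (adjusted p = 0.0159). In FosKO the change at 0.5 h was 0.74 ± 0.09 (adjusted p = 5.02e-06) and at 1 h 1.03 ± 0.09 (adjusted p = 6.63e-09). At 2 h the FosKO level was close to its own 0 h level, with a difference of -0.01 (95% interval -0.20 to 0.17, adjusted p = 0.913). The step from 0.5 h to 1 h was 0.97 in LysM-Cre (adjusted p = 2.29e-08) and 0.29 in FosKO (limma, adjusted p = 0.0173). The FosKO step was 0.23, 0.27 and 0.26, with no call, when FosKO replicate 1 or replicate 2 of the 0.5 h group or replicate 3 of the 1 h group was left out. From 1 h to 2 h Hbegf fell by 1.40 in LysM-Cre, and in FosKO it fell by 1.05. The small rise that was left in LysM-Cre at 2 h was 0.21 when replicate 2 of the 0 h group was left out and 0.23 when replicate 1 of the 2 h group was, and was not called in either case.

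The difference between these responses was tested directly. The rise in Hbegf at 1 h was smaller in FosKO by 0.62 ± 0.12 (limma, adjusted p = 0.0102). It did not pass with only the groups compared (adjusted p = 0.0594) or among high 18S libraries alone (-0.69, adjusted p = 0.0847). The responses at 0.5 h differed by 0.06 (95% interval -0.20 to 0.32, adjusted p = 0.97). At 2 h the difference in response was -0.27 ± 0.12 and did not pass the threshold (adjusted p = 0.167). The order of the group means was, from the highest, LysM-Cre 1 h, FosKO 1 h, LysM-Cre 0.5 h, FosKO 0.5 h, LysM-Cre 2 h, LysM-Cre 0 h, FosKO 0 h and FosKO 2 h. Neighbours overlapped between the genotypes at 0.5 h, between the genotypes at 0 h, and between FosKO 0 h and FosKO 2 h.

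**Figure D1:**
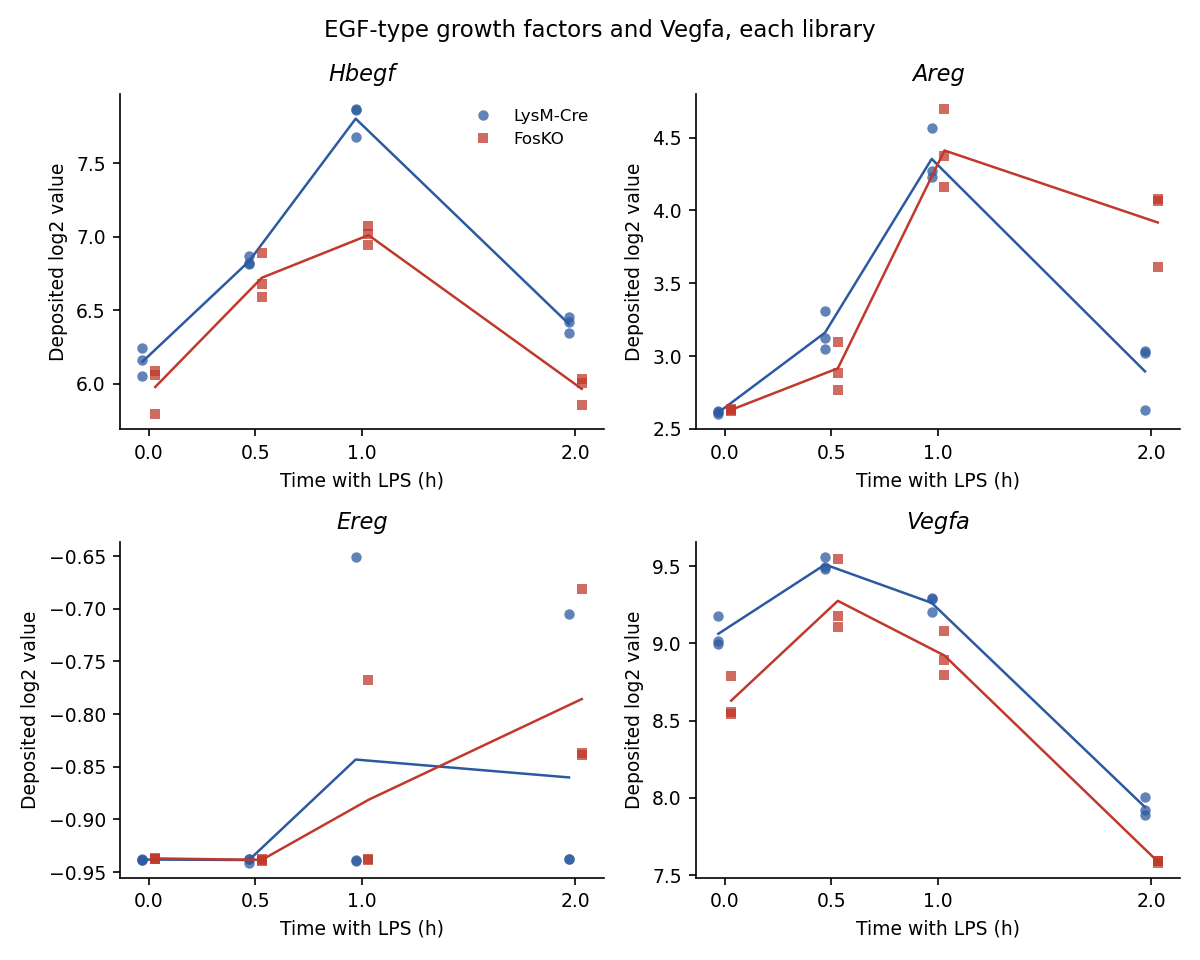
Deposited log2 value (vertical axis, a separate scale for each gene) of Hbegf, Areg, Ereg and Vegfa against hours with LPS. Each point is 1 library, blue circles are LysM-Cre, red squares are FosKO, and lines join the means of 3 libraries. Hbegf peaks at 1 h at 7.80 in LysM-Cre and 7.01 in FosKO, Areg stays at 3.92 in FosKO at 2 h while LysM-Cre is at 2.90, and Vegfa falls to 7.94 and 7.59 at 2 h.

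Areg rose by 1 h in both genotypes, where their libraries overlapped, and at 2 h it was back near its starting level in LysM-Cre but still raised in the libraries labelled FosKO. Amphiregulin is a lower-affinity ligand of the EGF receptor that immune cells release in tissue repair. The gene is ENSMUSG00000029378, protein coding, on the plus strand of chromosome 5 between positions 91139599 and 91148432 (GRCm38). Ereg lies 45952 bp upstream of it on the same strand.

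The sequence upstream of Areg is shown because Areg is the gene that was higher in FosKO, and because AP-1 and the related CREB and ATF factors bind short elements of known letters. It is the 250 bases before the RefSeq start site (GRCm38.p6, chr5:91139349-91139598, plus strand), written 5′ to 3′, with the only motif match in capitals.
Areg: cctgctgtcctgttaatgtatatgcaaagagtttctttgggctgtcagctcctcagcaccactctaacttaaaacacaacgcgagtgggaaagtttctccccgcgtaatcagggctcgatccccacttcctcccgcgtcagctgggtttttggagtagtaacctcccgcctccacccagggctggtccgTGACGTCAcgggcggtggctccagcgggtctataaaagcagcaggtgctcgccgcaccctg
The capitals are a full cAMP response element, TGACGTCA, at positions -61 to -54, where -1 is the base before the start site. The element reads the same on both strands, and 1.79% of the 32817 promoter windows in the RefSeq table, each from 250 bases before to 50 after a start, hold it. The AP-1 letters TGANTCA, which 7.81% of the windows hold on either strand, did not occur in the Areg window, nor did the CArG box, the NF-kB site or the HIF core ACGTG. A match is a run of letters and no evidence of binding.

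Areg values in LysM-Cre replicates 1, 2 and 3 were 2.60, 2.61 and 2.62 without LPS, 3.05, 3.12 and 3.31 after 0.5 h, 4.23, 4.27 and 4.56 after 1 h and then 3.04, 2.63 and 3.02 after 2 h. In FosKO they were 2.64, 2.63 and 2.63 without LPS, 2.77, 2.89 and 3.09 after 0.5 h, 4.16, 4.37 and 4.70 after 1 h and then 4.08, 3.61 and 4.07 after 2 h. The genotypes overlapped at 0.5 h and 1 h. At 2 h the lowest FosKO library lay above the highest LysM-Cre library.

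The 0 h values of Areg followed the lowest value of their library. The lowest value of any gene in a library lay between -2.22 and -2.21 and differed slightly from library to library. In the 6 libraries at 0 h, Areg lay on a straight line against that lowest value, with residuals of at most 5.87e-05. LysM-Cre replicate 2 at 2 h lay on the same line within 0.05, and the other 17 libraries lay above it by 0.18 to 2.07. The line is taken here as the lowest level that Areg can have in this table. The 0 h values of the genotypes did not overlap for Areg, but they differed by only 0.02 (95% interval -0.29 to 0.33). That interval rests on a spread pooled over all groups, and the SDs at 0 h were 0.011 in LysM-Cre and 0.006 in FosKO. Differences of Areg from 0 h are thus differences from a floor set by the transformation, and they give no fold change of the mRNA.

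At 2 h Areg was higher in FosKO than in LysM-Cre by 1.02 ± 0.15 on the log2 scale (limma, adjusted p = 1.11e-05). This SE is pooled over all groups, among them the 0 h groups at the floor, which had almost no spread. The SDs at 2 h were 0.23 in LysM-Cre and 0.27 in FosKO. Leaving out each library in turn gave values between 0.89 and 1.18, the highest adjusted p being 0.000148. At 0.5 h the difference was -0.25 (95% interval -0.56 to 0.07, adjusted p = 0.209) and at 1 h it was 0.06 (-0.25 to 0.37, adjusted p = 0.808). Split by 18S content, Areg differed at 1 h by 0.31 among high libraries but by -0.25 among low libraries, and the pair of values after 0.5 h was -0.10 and -0.54.

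In LysM-Cre, Areg was above 0 h by 0.55 ± 0.15 at 0.5 h (limma, adjusted p = 0.0269) and by 1.74 ± 0.15 at 1 h (adjusted p = 6.88e-09). The call at 0.5 h was lost without any 1 of 5 libraries, namely LysM-Cre replicates 1, 2 and 3 at 0 h and replicates 2 and 3 at 0.5 h, with values between 0.47 and 0.57. At 2 h the difference from 0 h was 0.28 ± 0.15 (adjusted p = 0.111), and it was 0.42 and called (adjusted p = 0.03) without LysM-Cre replicate 2, the library at the floor. In FosKO, Areg was above 0 h by 0.29 ± 0.15 at 0.5 h (adjusted p = 0.314), by 1.78 ± 0.15 at 1 h (adjusted p = 5.43e-09) and by 1.29 ± 0.15 at 2 h (limma, adjusted p = 2.02e-07). The response at 2 h was larger in FosKO by 1.00 ± 0.21 (adjusted p = 0.00239), and the responses at 0.5 h and 1 h differed by -0.26 and 0.04 (adjusted p = 0.824 and 0.993).

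Between 0.5 h and 1 h Areg rose by 1.19 in LysM-Cre (limma, adjusted p = 2.51e-06) and by 1.496 in FosKO (adjusted p = 1.13e-07). Between 1 h and 2 h it fell by 1.46 ± 0.15 in LysM-Cre (adjusted p = 5.41e-08), and FosKO levels fell by 0.49 ± 0.15 (adjusted p = 0.0087). The FosKO fall was 0.35 without FosKO replicate 3 at 1 h and 0.34 without FosKO replicate 2 at 2 h, and was not called in either case. From the highest mean, Areg ran from FosKO 1 h and LysM-Cre 1 h, which overlapped, through FosKO 2 h, which overlapped neither neighbour, to LysM-Cre 0.5 h, FosKO 0.5 h, LysM-Cre 2 h and FosKO 0 h, each of which overlapped the next, and to LysM-Cre 0 h.

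Ereg stood at its own floor in most libraries. Epiregulin is a broad ErbB ligand. The gene is ENSMUSG00000029377, protein coding, on the plus strand of chromosome 5 between positions 91074622 and 91093646 (GRCm38), and its start overlaps the antisense gene Gm19610, which has no row in the table used here. At 0 h Ereg followed the lowest value of the library as closely as Areg did, and 18 of the 24 libraries lay on that line, between -0.94103 and -0.93672. The other 6 lay above it by 0.10 to 0.29. In LysM-Cre these were replicate 1 of the 1 h group (-0.65) and replicate 3 of the 2 h group (-0.71). In FosKO they were replicate 3 of the 1 h group (-0.77) and all replicates of the 2 h group (-0.84, -0.84 and -0.68).

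Ereg was thus above its floor only in libraries with 1 h or 2 h of LPS. At 2 h that held for 3 of 3 FosKO libraries and 1 of 3 LysM-Cre libraries, and at 1 h for 1 of 3 in each genotype. Fitted without the filter, Ereg was called in 0 of 17 comparisons, and its lowest adjusted p by limma was 0.0905, for FosKO at 2 h against 0 h. The difference between the genotypes at 2 h was 0.07 (95% interval -0.07 to 0.21). In FosKO at 2 h against 0 h it was 0.15 (95% interval 0.01 to 0.29), with no overlap of the libraries but without a call. At these levels a missing call does not show that a change in Ereg is absent.

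**Figure D2:**
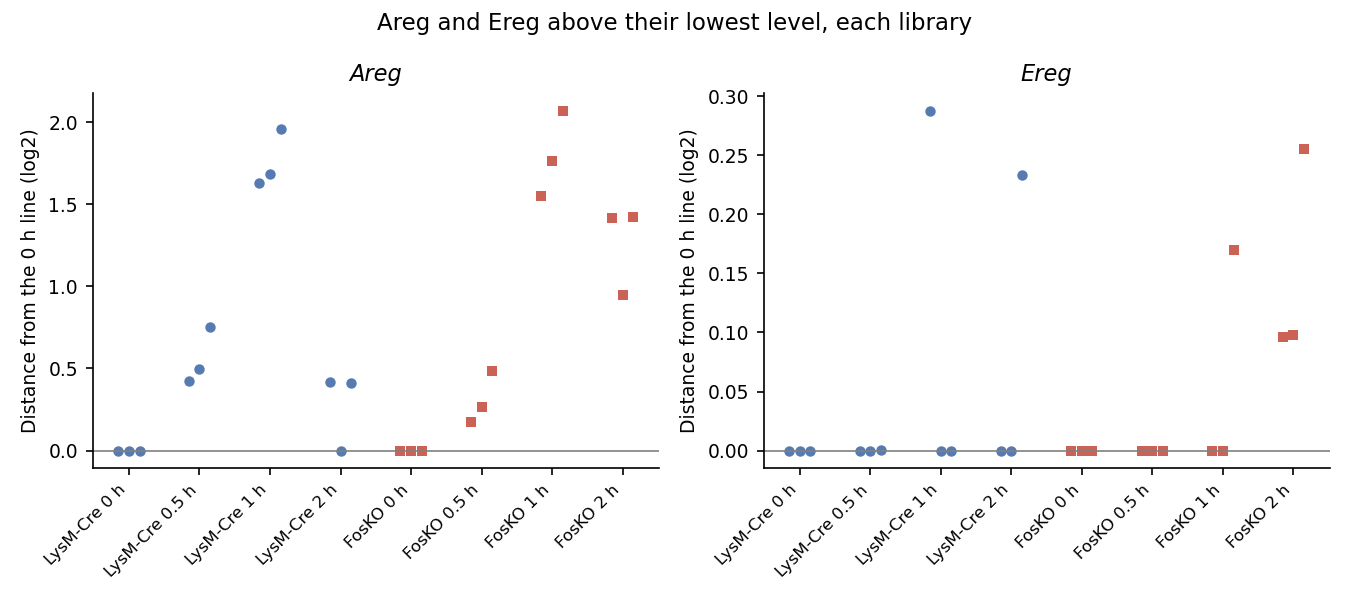
Distance of Areg (left) and Ereg (right) from the line through the 6 libraries at 0 h (vertical axis, log2 units), with 1 point per library by group, blue circles for LysM-Cre and red squares for FosKO. Areg lies on the line in 7 libraries, which are those at 0 h and 1 LysM-Cre library at 2 h, and Ereg lies on it in 18 libraries.

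Vegfa was called lower under the label FosKO at each of the 4 times, but the call at 0.5 h did not hold under several alternatives. It rose early and fell below its starting level by 2 h in both genotypes. The gene is ENSMUSG00000023951, protein coding with 13 annotated transcripts, on the minus strand of chromosome 17 between positions 46016993 and 46032369 (GRCm38). The sequence before its outer RefSeq start site is shown because Vegfa moved with LPS in both genotypes, and NF-kB is activated by TLR4. It covers 250 bases (GRCm38.p6, chr17:46032378-46032627, minus strand), written 5′ to 3′.
Vegfa: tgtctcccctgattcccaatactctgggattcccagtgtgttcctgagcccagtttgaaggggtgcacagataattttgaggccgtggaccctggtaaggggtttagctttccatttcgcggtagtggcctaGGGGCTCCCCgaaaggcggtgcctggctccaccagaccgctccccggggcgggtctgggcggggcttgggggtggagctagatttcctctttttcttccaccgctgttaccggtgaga
The capitals mark a match to the NF-kB site, GGGGCTCCCC, at positions -118 to -109 from the start. Of all promoter windows, 4.5% hold such a site on either strand. Here too a match is a run of letters and no evidence of binding. Its part in the LPS changes of Vegfa was not tested. The AP-1, CRE, CArG and HIF core letters did not occur in this window, and the window of a second RefSeq start inside the gene held 1 match to the HIF core, which 19.6% of windows hold. No promoter is shown for Ereg or Hbegf.

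Vegfa values in LysM-Cre replicates 1, 2 and 3 were 9.17, 9.01 and 8.998 without LPS, 9.56, 9.49 and 9.48 after 0.5 h, 9.29, 9.20 and 9.29 after 1 h and then 8.01, 7.89 and 7.92 after 2 h. In FosKO they were 8.55, 8.54 and 8.79 without LPS, 9.17, 9.11 and 9.55 after 0.5 h, 8.79, 9.08 and 8.89 after 1 h and then 7.59, 7.59 and 7.58 after 2 h. The genotypes did not overlap at 0 h, 1 h and 2 h. At 0.5 h FosKO replicate 3 lay among the LysM-Cre libraries.

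Before LPS Vegfa was 1.35-fold lower in FosKO (-0.43 ± 0.09, limma, adjusted p = 0.000805). At 1 h it was 1.27-fold lower (-0.34 ± 0.09, adjusted p = 0.00604) and at 2 h 1.28-fold lower (-0.35 ± 0.09, adjusted p = 0.00338). At 0.5 h the difference was -0.24 ± 0.09 with an adjusted p of 0.0449 by limma, a call that was lost without any single library of LysM-Cre at 0.5 h and without FosKO replicate 1 or 2, with values from -0.25 to -0.15. The differences were -0.20 and -0.31 in the high and low 18S sets at 0.5 h, and -0.30 and -0.46 at 1 h. In the high set alone the 1 h difference was not called (adjusted p = 0.143).

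The response of Vegfa to LPS was not shown to differ between the genotypes. In LysM-Cre the change from 0 h was 0.45 ± 0.09 at 0.5 h (limma, adjusted p = 0.0025), 0.20 ± 0.09 at 1 h (adjusted p = 0.096) and -1.12 ± 0.09 at 2 h (adjusted p = 8.96e-10). In FosKO it was 0.65 ± 0.09 at 0.5 h (adjusted p = 5.16e-05), 0.29 ± 0.09 at 1 h (adjusted p = 0.0175) and -1.04 ± 0.09 at 2 h (adjusted p = 2.77e-09). The FosKO change at 1 h was 0.25, 0.25 and 0.21, with no call, when replicate 1 or replicate 2 of the 0 h group or replicate 2 of the 1 h group was left out. With only the groups compared, the FosKO changes at 0.5 h and 1 h kept their size but were not called (limma, adjusted p = 0.0612 and 0.0718). The responses differed by 0.20 at 0.5 h (95% interval -0.07 to 0.47), by 0.09 at 1 h (-0.18 to 0.36) and by 0.08 at 2 h (-0.19 to 0.35), and no such difference passed the test (limma, adjusted p = 0.798, 0.955 and 0.758).

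Between 1 h and 2 h Vegfa fell by 1.32 in LysM-Cre while FosKO levels fell by 1.33 (limma, adjusted p = 1.31e-10 and 1.03e-10). Between 0.5 h and 1 h Vegfa fell by 0.25 in LysM-Cre (adjusted p = 0.0491), and FosKO levels fell by 0.35 (limma, adjusted p = 0.00553). The LysM-Cre step lost its call without any single library of LysM-Cre at 0.5 h or 1 h, with values from -0.26 to -0.22. The FosKO step was not called with only the groups compared (-0.35, limma, adjusted p = 0.109). From the highest mean the groups ran from LysM-Cre 0.5 h, FosKO 0.5 h and LysM-Cre 1 h, each of which overlapped the next, to LysM-Cre 0 h and FosKO 1 h, which overlapped, and then FosKO 0 h, LysM-Cre 2 h and FosKO 2 h, which stood apart from each other.

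**Figure D3:**
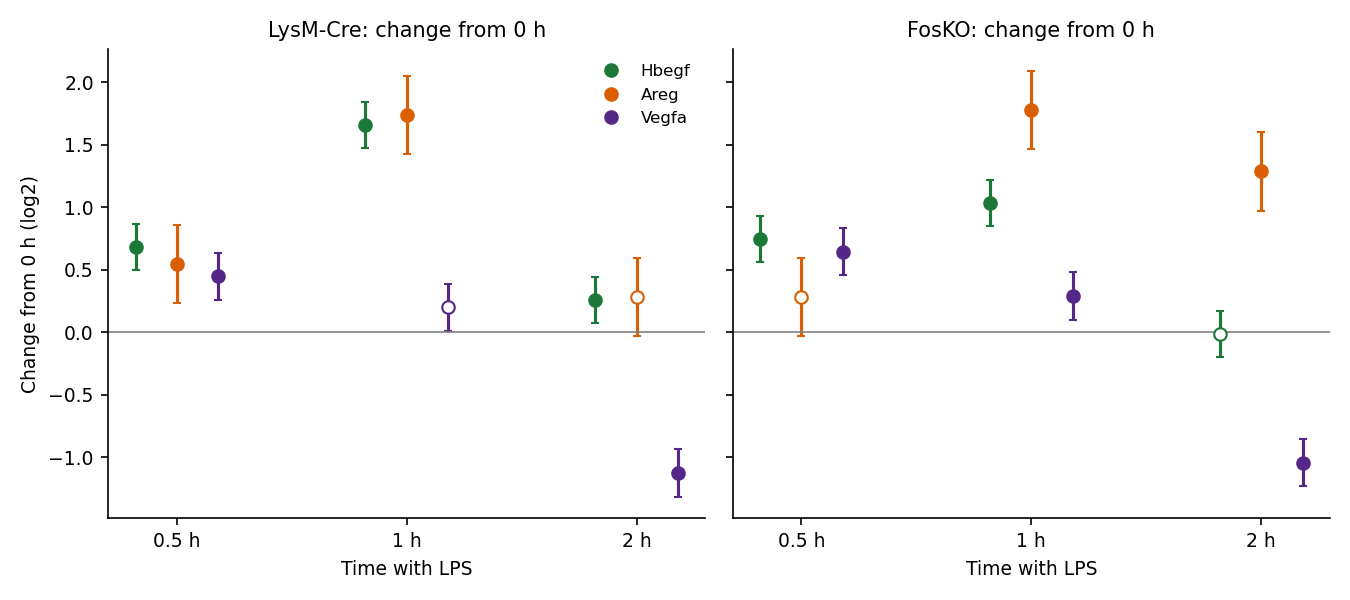
Change from 0 h (vertical axis, log2 units) of Hbegf, Areg and Vegfa at 0.5, 1 and 2 h of LPS in LysM-Cre (left) and FosKO (right), from the limma fit with 3 libraries per group. Bars are 95% intervals, and filled points have an adjusted p under 0.05. At 2 h Hbegf is at 0.26 and -0.01, Areg at 0.28 and 1.29, and Vegfa at -1.12 and -1.04.

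The calls are read against all genes tested. For LPS in LysM-Cre, 3 of 3 tested members were called at 0.5 h, where 7.24% of all genes were, 2 of 3 at 1 h (35.8% of all genes) and 2 of 3 at 2 h (60.8%). In FosKO the counts were 2 of 3 at 0.5 h (5.92%), 3 of 3 at 1 h (32.6%) and 2 of 3 at 2 h (62.1%). For the step from 0.5 h to 1 h, 3 of 3 were called in LysM-Cre (26.8%) and 3 of 3 in FosKO (27.5%). For the step from 1 h to 2 h all 3 fell in each genotype, where 52.3% and 50.7% of genes were called in either direction. Of the 13901 genes, 3449 were called lower in LysM-Cre at that step and 3274 in FosKO. With 3 members only, these shares are given beside the background and nothing more is read from them.

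Between the genotypes, Vegfa was the only tested member called at 0 h (1 of 3, against 35.4% of all genes) and at 0.5 h (1 of 3, 40.9%). Hbegf and Vegfa were called at 1 h (2 of 3, 33.9%), and all 3 at 2 h (44.6%), with Hbegf and Vegfa lower and Areg higher. For the difference in LPS response 0 of 3 were called at 0.5 h by limma, also at an unadjusted p under 0.05 (0.115% of all genes were called). At 1 h 1 of 3 was called, Hbegf, against 1.22% of all genes, and at 2 h 1 of 3, Areg, against 15%.

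**Figure D4:**
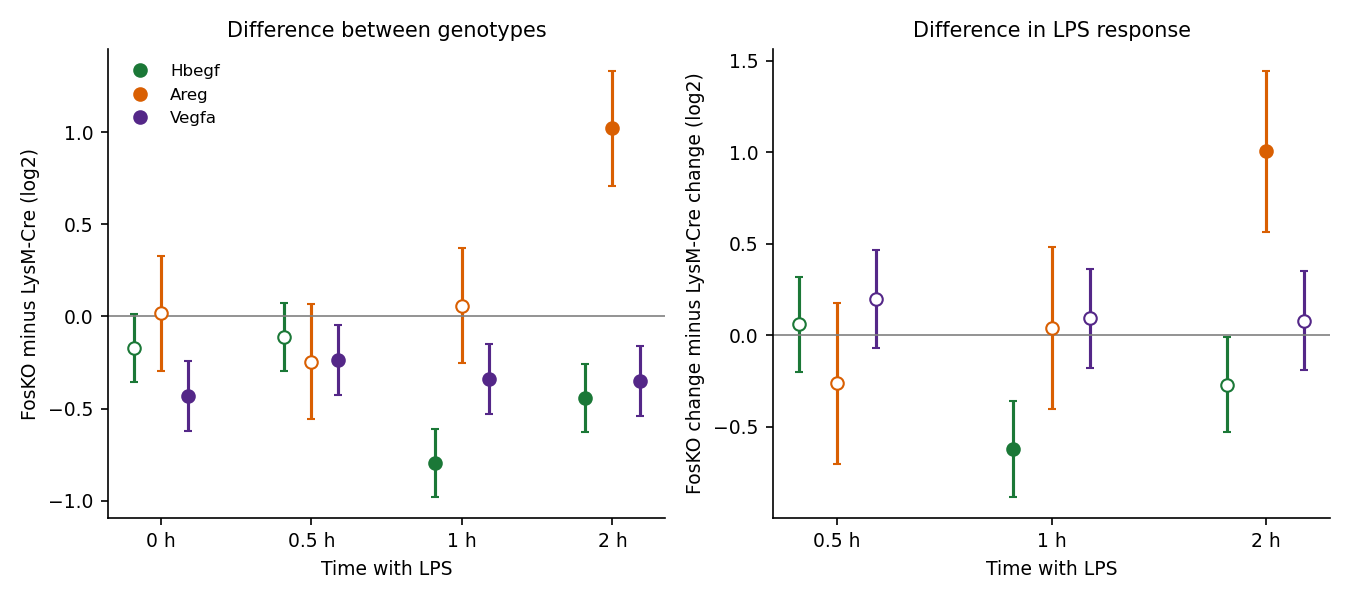
FosKO minus LysM-Cre at each time (left) and the FosKO change from 0 h minus the LysM-Cre change from 0 h (right), in log2 units, for Hbegf, Areg and Vegfa. Bars are 95% intervals of the limma fit with 3 libraries per group, and filled points have an adjusted p under 0.05. Hbegf is lowest at 1 h (-0.79), Areg is higher at 2 h (1.02), and Vegfa lies between -0.43 and -0.24 throughout.

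Some markers of other cell types were called between the genotypes, and these calls are read against the share over all genes. That share, in either direction, was 35.4%, 40.9%, 33.9% and 44.6% at 0, 0.5, 1 and 2 h. Of 6 neutrophil markers, 5 had a row and 2 were tested, and their summed level on the linear scale was 51.6 to 61.8 in LysM-Cre and 35.4 to 41.9 in FosKO at 0 h, 57.8 to 69.2 against 45.7 to 47.4 at 0.5 h, 68.2 to 89.1 against 44.5 to 49.5 at 1 h, and 77.8 to 104 against 49.3 to 56.9 at 2 h. S100a8 and S100a9 carried that sum, while the medians of Ly6g and Elane lay at the lowest values of the table. The mast cell marker Cpa3 was also near the bottom of the table, with a median of -1.98, and the summed mast cell and basophil markers were 33.0 to 44.0 in LysM-Cre and 24.9 to 34.4 in FosKO at 0 h, 34.2 to 38.1 against 22.9 to 29 at 0.5 h, 30.9 to 42.1 against 24.9 to 29.6 at 1 h, and 26.2 to 31.3 against 22.1 to 29.4 at 2 h, so that the genotypes stood apart at 0.5 h and 1 h. Of the 6 markers of that list 3 had a row, and Mcpt8, Fcer1a and Ms4a2 had none. Kit carried the sum, with a median of 4.68 against 1.97 for Gata2. Kit, the only tested marker of that list, was lower in FosKO by 0.43, 0.53 and 0.53 at 0, 0.5 and 1 h. It was not called at 2 h (-0.27). Its calls did not hold when replicate 2 or 3 of LysM-Cre or replicate 1 or 2 of FosKO was left out at 0 h, replicate 3 of LysM-Cre or 2 of FosKO at 0.5 h, or replicate 2 or 3 of LysM-Cre or 1 or 3 of FosKO at 1 h, nor among high 18S libraries at 1 h (-0.19).

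The dendritic cell sum was 28.4 to 29.1 in LysM-Cre and 27.2 to 32.7 in FosKO at 0 h, 27.0 to 29.9 against 29.7 to 37.2 at 0.5 h, 27.9 to 36.6 against 30.9 to 38.6 at 1 h, and 79.2 to 87.3 against 49.7 to 57.6 at 2 h. Of its tested markers, Zbtb46 was lower in FosKO at 2 h (-0.96), and Ccr7 was higher at 0.5 h and 1 h (0.52 and 0.46), the latter not called without FosKO replicate 1 (0.33) or among high 18S libraries (0.23). Of 5 T cell and innate lymphoid markers, Il7r had a median of 12.67 while Cd3e and Cd3g were near the bottom of the table (-1.18 and -1.51). Il7r made up nearly all of that list's sum. The sum was 6470 to 7110 in LysM-Cre and 5950 to 7200 in FosKO at 0 h, 6660 to 6940 against 5930 to 6700 at 0.5 h, 6740 to 7230 against 6050 to 6550 at 1 h, and 5140 to 5540 against 4660 to 5050 at 2 h, apart at 1 h and 2 h. Il7r was lower in FosKO at 1 h (-0.15, limma, adjusted p = 0.0465) and not called at 2 h (-0.13). The 1 h call did not hold among high 18S libraries or when replicate 2 or 3 of LysM-Cre, or replicate 1 or 2 of FosKO, was left out. The B cell sum was 43.9 to 49.5 in LysM-Cre and 40.6 to 44.1 in FosKO at 0 h, 45.1 to 50.4 against 33.8 to 42.4 at 0.5 h, 44.6 to 48.1 against 35.2 to 43 at 1 h, and 46.9 to 52.5 against 40 to 46 at 2 h, with no overlap at the last 3 times. Cd79b, the only tested marker of that list, made up most of its sum. It was lower in FosKO by 0.38, 0.29 and 0.26 at those times. The 1 h call did not hold when replicate 1 or 2 of LysM-Cre or 2 or 3 of FosKO was left out. The 2 h call did not hold when replicate 2 or 3 of either genotype was left out. The stromal sum was 38.9 to 45.7 against 28.9 to 35.1 at 0 h, 33.1 to 39.9 against 29.3 to 39.3 at 0.5 h, 35.5 to 49.1 against 29.9 to 34.9 at 1 h, and 65 to 80 against 67.5 to 79.6 at 2 h, apart at 0 h and 1 h. Of 4 tested stromal markers Col3a1 alone was called, at 2 h (-0.53), where 44.6% of all genes were called. That call did not hold when any replicate but LysM-Cre replicate 1 was left out. The part of such cells in the lower Vegfa and Hbegf of FosKO was not tested.

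Among the other EGF-type ligands, Nrg4 alone passed the filter, of 6 with a row, and it was not called between the genotypes at any of the 4 times. Egf, Btc, Epgn, Nrg1 and Nrg2 had medians between -1.40 and 2.03.

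Among the ErbB receptors and their inhibitors, Errfi1 and Lrig1 were lower and Cblb was higher in FosKO at all 4 times. Of 8 tested, 1, 1, 1 and 2 were higher and 2, 3, 2 and 3 were lower in FosKO at 0, 0.5, 1 and 2 h, with list medians of 0.05, -0.09, 0.02 and -0.18, beside medians of about 0.00 over all genes. In all 3, 4, 3 and 5 of the 8 were called, against 35.4%, 40.9%, 33.9% and 44.6% of all genes called in either direction. Errfi1 (Mig6), which binds and inhibits the EGF receptor kinase, had means in LysM-Cre of 8.77, 11.04, 12.99 and 10.96 at 0, 0.5, 1 and 2 h, and in FosKO of 8.46, 9.82, 11.54 and 9.68. It was lower in FosKO by 0.31 at 0 h and by 1.21, 1.45 and 1.28 at the later times (limma, adjusted p between 6.99e-12 and 0.00229), and the genotypes overlapped at none of them. Errfi1 peaked at 1 h as Hbegf did, with the lower peak in FosKO. Lrig1, which lowers receptor levels, was lower by 0.68 to 0.91 at all 4 times, and Cblb, a ubiquitin ligase, was higher by 0.16 to 0.46. Egfr itself was at 3.49 to 4.53 over the libraries and was called only at 0.5 h (-0.43, limma, adjusted p = 0.0288). That call was lost with no filter (-0.43), in the high 18S set (-0.38) and without any single library of the 6 but FosKO replicate 2 (-0.45 to -0.35).

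Genes for the release of EGF-type ligands moved in both directions. Of 9 tested, 3, 3, 2 and 5 were higher and 3, 3, 2 and 2 were lower in FosKO at 0, 0.5, 1 and 2 h, with medians of 0.00, 0.03, 0.02 and 0.09. The 6, 6, 4 and 7 calls among 9 genes stand against 35.4%, 40.9%, 33.9% and 44.6% of all genes called in either direction. Adam8 was lower by 0.44 to 0.50 and Adam15 by 0.18 to 0.30 at all times. Rhbdf2 (iRhom2), which carries the sheddase Adam17 to the cell surface, was higher by 0.33 to 0.46, and Frmd8, which stabilises iRhoms, was higher by 0.38 at 2 h (adjusted p = 3.08e-07). The calls of Frmd8 at 0.5 h and 1 h (0.14 and 0.12) were lost with quantile normalisation (0.098 and 0.080, limma, adjusted p = 0.0883 and 0.181) and among high 18S libraries (0.14 and 0.11). They were also lost when replicate 2 of LysM-Cre or 3 of FosKO was left out at 0.5 h, and replicate 2 or 3 of LysM-Cre or 2 of FosKO at 1 h.

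In the VEGF family the receptors Flt1, Kdr and Flt4 were higher in FosKO, and the ligands moved in both directions. Of 8 tested apart from Vegfa, 5, 5, 4 and 5 were higher and 0, 2, 1 and 2 were lower at 0, 0.5, 1 and 2 h, with medians of 0.26, 0.30, 0.17 and 0.18. These are 5, 7, 5 and 7 of 8 called, against 35.4%, 40.9%, 33.9% and 44.6% of all genes called in either direction. Pgf (placental growth factor), a ligand of Flt1, rose in LysM-Cre from a mean of 3.58 at 0 h to 5.89 at 1 h and 6.19 at 2 h, and in FosKO from 3.33 to 4.20 and 4.42. Pgf was lower in FosKO by 1.69 at 1 h and by 1.78 at 2 h (limma, adjusted p = 1.36e-08 and 3.86e-09). It was not called at 0 h (-0.25), and its difference at 0.5 h (-0.36) was not called under several alternatives, among them only the groups compared (adjusted p = 0.138), high 18S libraries (-0.40), and leaving out LysM-Cre replicate 1 (-0.25, adjusted p = 0.222) or 3 (-0.34) or FosKO replicate 2 (-0.25, adjusted p = 0.218) or 3 (-0.42). Vegfb, a ligand of Flt1, and Vegfc, a ligand of Flt4, are named after their values were seen. Vegfb was higher in FosKO by 0.23, 0.28 and 0.19 at 0, 0.5 and 2 h, and its 1 h value (0.14) was called only under some alternatives, among them without LysM-Cre replicate 1 or FosKO replicate 3 (0.17 and 0.19). Vegfc was lower by 0.55 and 0.57 at 0.5 and 2 h, the former not called among high 18S libraries (-0.49), and at 1 h (-0.20) it was not called. Its 0 h value (-0.28) was called only without LysM-Cre replicate 1 (-0.41). Flt1 was higher in FosKO by 1.24, 1.19, 1.12 and 0.74 at the 4 times, Kdr by 0.90, 1.02, 0.75 and 0.71, and Flt4 by 0.84, 1.24, 0.93 and 0.59. The endothelial markers Tek and Emcn lay near the bottom of the table (medians -1.04 and -1.86), while Cdh5, the tested marker of that list, had a median of 4.15 and was higher in FosKO by 0.44 at 0 h and 0.43 at 2 h, with uncalled values of 0.35 at 0.5 h and -0.16 at 1 h. The Cdh5 calls did not hold when replicate 2 or 3 of either genotype was left out at 0 h, or replicate 1 or 2 of either genotype at 2 h. The summed endothelial markers were 13.4 to 16.6 in LysM-Cre and 18 to 23.2 in FosKO at 0 h, 14.0 to 18.6 against 19.4 to 22.2 at 0.5 h, 15.4 to 20.3 against 13.3 to 18.6 at 1 h, and 14.6 to 19.3 against 18.7 to 25.2 at 2 h. Their part in the receptor values was not tested.

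Genes of oxygen sensing, the pathway best known to induce Vegfa, were called in both directions at 0, 0.5 and 1 h. Of 8 tested, 1, 1, 2 and 0 were higher and 3, 3, 4 and 3 were lower in FosKO at 0, 0.5, 1 and 2 h, with medians between -0.14 and -0.02. Called in either direction were 4, 4, 6 and 3 of 8, against 35.4%, 40.9%, 33.9% and 44.6% of all genes. Epas1 (HIF-2 alpha) was lower by 0.39, 0.58, 0.37 and 0.32, and Egln1, a prolyl hydroxylase that marks HIF for decay, by 0.31, 0.27, 0.32 and 0.47. Egln3 was lower by 0.34, 0.37 and 0.39 at 0, 0.5 and 1 h, the first of which was no longer called (-0.23, adjusted p = 0.0939) when FosKO replicate 3 was left out. Hif1a rose with LPS in LysM-Cre by 0.41 at 1 h and by 0.96 at 2 h, when Vegfa fell, and was 0.26 lower in FosKO at 2 h (limma, adjusted p = 7.31e-06). Its call at 1 h (-0.10, adjusted p = 0.0423) did not hold among high 18S libraries (-0.049), nor when replicate 2 or 3 of LysM-Cre or any replicate of FosKO was left out at that time (-0.11 to -0.087).

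Of 9 other hypoxia-inducible genes, 3, 2, 2 and 2 were higher and 5, 6, 5 and 3 were lower in FosKO at 0, 0.5, 1 and 2 h, with medians of -0.18, -0.28, -0.15 and -0.07. That makes 8, 8, 7 and 5 of 9 called, against 35.4%, 40.9%, 33.9% and 44.6% of all genes called in either direction. Ndrg1 was lower at all 4 times, by 0.31, 0.38, 0.42 and 0.69, and Ankrd37 was lower by 0.81, 0.67 and 0.72 at 0, 0.5 and 1 h but not called at 2 h (-0.07). Pfkfb3, which raises the flux of glycolysis, was higher by 0.84 and 0.91 at 0 and 0.5 h and not called at 2 h (-0.11) or at 1 h (0.17), where it passed when only the groups compared were fitted (limma, adjusted p = 0.0332). Adm (adrenomedullin) was lower at 0.5 h (-0.29, limma, adjusted p = 0.0259) and higher by 0.41 at 1 h and by 0.74 at 2 h. The Adm value at 0.5 h no longer passed among high 18S libraries (-0.21), nor without LysM-Cre replicate 3 (-0.21) or FosKO replicate 1 or 3 (-0.29 and -0.25). In LysM-Cre 6 of the 9 were higher at 2 h of LPS than at 0 h and 2 were lower, where 60.8% of all genes were called (4248 higher and 4200 lower).

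**Figure D5:**
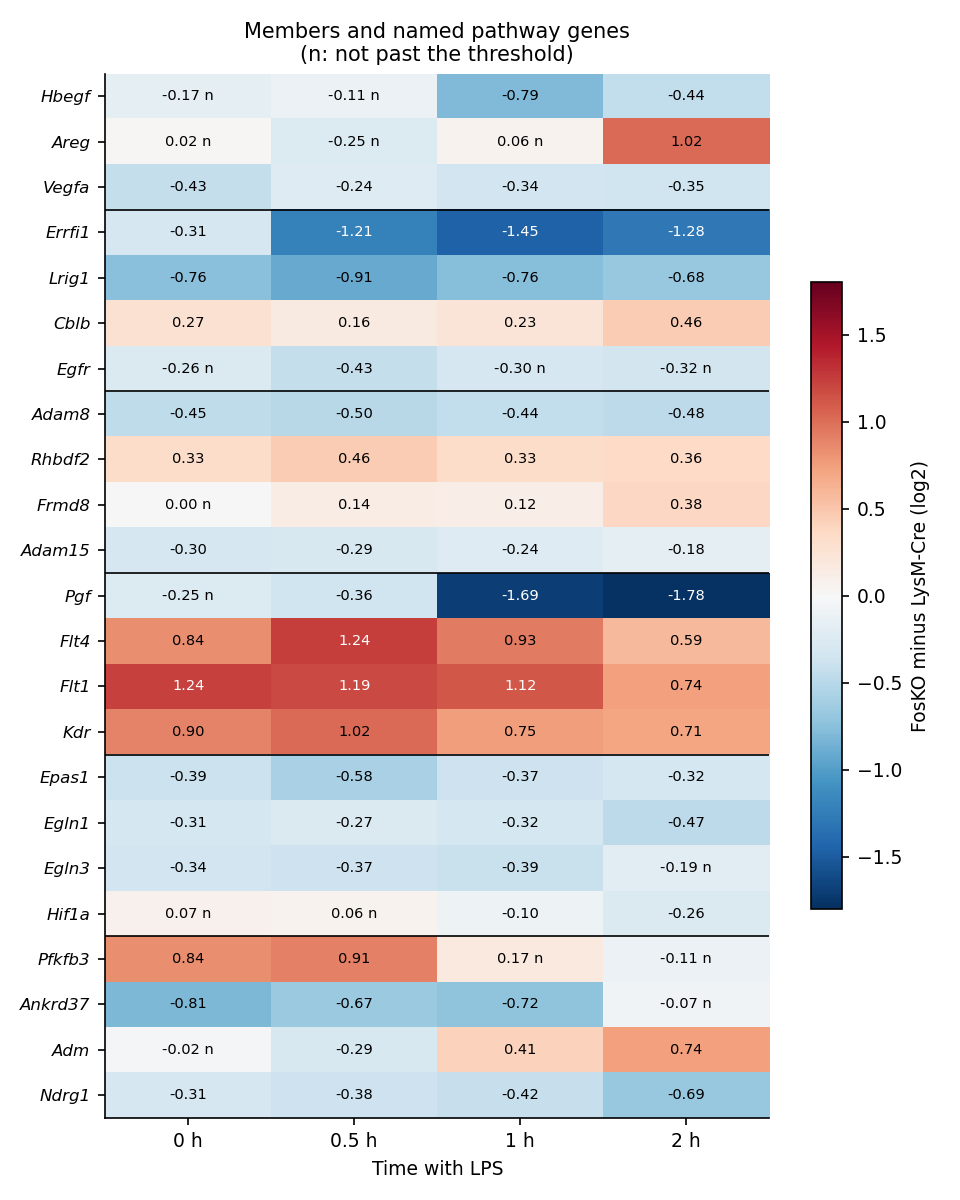
FosKO minus LysM-Cre (color and printed value, log2 units) at 0, 0.5, 1 and 2 h of LPS for Hbegf, Areg and Vegfa (top block) and for named genes of ErbB receptors and inhibitors, ligand shedding, the VEGF family, oxygen sensing and hypoxia-inducible genes (blocks below). An n marks values with an adjusted p of at least 0.05 in the limma fit with 3 libraries per group. Errfi1 (-1.45 at 1 h) and Pgf (-1.78 at 2 h) are lowest, and Flt1 and Flt4 (both 1.24) are highest.

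The genes whose 8 group means were most like those of each member were listed as a description. For Hbegf they were Gm20528 (Pearson r 0.968 over 8 group means and 0.525 over 24 libraries), Hilpda (0.956 and 0.949) and Gm22133 (0.956 and 0.63). Gm20528 was at 4.74 to 5.15 in the 5 low 18S libraries, against 1.92 to 1.998 elsewhere, and Gm22133 was at 12.01 to 12.16 in the low set against 11.60 to 11.83 elsewhere. Hilpda, a lipid droplet protein named for its induction by hypoxia, had means in LysM-Cre of 7.21, 7.83, 8.57 and 7.53 at 0, 0.5, 1 and 2 h and in FosKO of 7.33, 7.90, 8.12 and 6.81. For Areg they were Rbbp6 (0.981 and 0.864), Mbtd1 (0.977 and 0.943) and Casd1 (0.964 and 0.783). Mbtd1 means were 9.20, 9.35, 9.90 and 9.46 in LysM-Cre and 9.24, 9.35, 9.89 and 9.66 in FosKO. For Vegfa they were Lrrcc1 (0.986 and 0.922), Lats2 (0.984 and 0.944), a kinase of the Hippo pathway, and Fbxo25 (0.983 and 0.915). Ranked over the 24 libraries instead, the closest genes were Hilpda for Hbegf (0.949), Spry1 for Areg (0.946), an inhibitor of receptor tyrosine kinase signaling, and Eepd1 for Vegfa (0.954). Among the members themselves, r over the 8 group means was 0.59 for Hbegf and Vegfa, 0.627 for Hbegf and Areg, and -0.03 for Areg and Vegfa.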

How the data were processed

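RNA sequencing libraries from BMDMs were made by the authors with TruSeq kits and read from a single end, strand-specifically, on a HiSeq 2500. The authors' processing notes name STAR 2.5.2a, RSEM 1.2.31 and DESeq2 1.16.1, on GRCm38. The deposited log2 values, 1 per gene and library, were already normalised by the authors, and the transform is not given in the sources used here. Whole reads could not be recovered, so no counting interval was computed and errors rest on the replicates.

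limma 3.58.1 (R 4.3.3) was fitted to the values as deposited with 8 group means (16 residual degrees of freedom, variance trend). Genes were tested if 2 raised to their value reached 5 in at least 3 libraries. From the fit 17 comparisons were drawn, with Benjamini-Hochberg adjustment over 13901 genes and a threshold of 0.05. The design had assumed linear values, so the pseudocount of 1 became an alternative. The fit was also run on simulated data, and no result of that run is given or used here. The members and the gene lists were chosen with earlier results of these data known. From each list up to 4 genes called between the genotypes, with the largest difference, are named. Marker genes given with values, and Vegfb and Vegfc, were picked after their values were seen. Of the 24273 identifiers, 99.6% were found in GENCODE vM21. Promoters come from RefSeq (GRCm38.p6), with 1 window for Areg and 2 for Vegfa. With 3 libraries against 3, an exact permutation test cannot give a p below 0.1, so none was used.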

Additional observations from a re-analysis of the deposited data

Results flagged for a closer look

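The response of Hbegf to LPS differed between the genotypes at 1 h. The rise was 1.66 for LysM-Cre against 1.03 under the label FosKO, a difference of -0.62 on the log2 scale (limma, adjusted p = 0.0102), and all 3 FosKO libraries at 1 h lay below all 3 LysM-Cre libraries. The adjusted p was 0.0594 with only the groups compared in the fit and 0.0847 in the high 18S libraries alone, where the difference was -0.69.

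The response of Areg differed at 2 h. The level was 0.28 above 0 h in LysM-Cre and 1.29 above 0 h in FosKO, a difference of 1.00 (limma, adjusted p = 0.00239), and all 3 FosKO libraries at 2 h lay above all 3 LysM-Cre libraries. The 0 h libraries of both genotypes stood at the floor of Areg, as did LysM-Cre replicate 2 at 2 h, so the size is one of the deposited scale.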

How the results depend on the processing

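Each comparison of Hbegf, Areg and Vegfa was refitted under other scalings, filters, models and library sets. Of the refits of these 3 genes that did not leave out a single library, 523 kept direction and side of the threshold, 21 lost the call, 2 gained one and 3 turned direction without a call; of those that left out 1 library the counts were 322, 26, 2 and 10. The cause was not tested for any of them.

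Vegfa between the genotypes at 0.5 h (-0.24) lost its call with no filter, no variance trend or only the groups compared (-0.24 each), with median centring (-0.22) and in the high 18S libraries (-0.20), and ran from -0.37 to -0.15 over leave-one-out fits. In the high 18S libraries the 1 h value was -0.30. Vegfa in LysM-Cre from 0.5 h to 1 h lost its call with no filter or no trend (-0.25 each), median centring (-0.22), the 18S set as a term (-0.21) and the high 18S libraries (-0.24), with leave-one-out values from -0.26 to -0.22, and its LysM-Cre change at 1 h became a call with only the groups compared (0.20) and with the 18S term (0.27). With only the groups compared, calls were lost for Vegfa in FosKO at 0.5 h (0.65), 1 h (0.29, leave-one-out 0.21 to 0.37) and from 0.5 h to 1 h (-0.35). Areg in LysM-Cre at 0.5 h lost its call with no filter (0.55) and in the high 18S libraries (0.47), leave-one-out 0.47 to 0.60. Areg in LysM-Cre at 2 h ran from 0.21 to 0.42 and between the genotypes at 1 h from -0.085 to 0.18. Areg in FosKO from 1 h to 2 h lost its call with only the groups compared (-0.49), leave-one-out -0.62 to -0.34, and its difference in response at 1 h was -0.017 with quantile normalisation, leave-one-out -0.10 to 0.16. Hbegf in FosKO from 0.5 h to 1 h lost its call with only the groups compared (0.29) and in the high 18S libraries (0.22), leave-one-out 0.23 to 0.38. Its difference in response at 1 h was -0.62 and -0.69 under these settings, without a call, and leave-one-out values were -0.032 to 0.12 at 0.5 h and -0.36 to -0.21 at 2 h, where it was called (adjusted p = 0.0462) without FosKO replicate 3 at 0 h. Hbegf in FosKO at 2 h, not called, was 0.11 with quantile normalisation and 0.044 with median centring (leave-one-out -0.11 to 0.043), and in LysM-Cre at 2 h it ran from 0.21 to 0.30. Uncalled differences between the genotypes turned sign with quantile normalisation for Frmd8 at 0 h (-0.051, leave-one-out -0.028 to 0.051), Hif1a at 0 h and 0.5 h (-0.0024 and -0.021) and Adm at 0 h (0.0019), and without LysM-Cre replicate 1 for Ankrd37 at 2 h (leave-one-out -0.13 to 0.0056). Hif1a became a call, higher in FosKO, at 0.5 h in the high 18S libraries (0.11, adjusted p = 0.0497) and without FosKO replicate 1 (0.098).

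Among the marker genes, quantile normalisation ended the call of Cd68 at 1 h (0.012) and turned it at 2 h (-0.051, no call), and it gave a lower call of Csf1r at 2 h (-0.30, leave-one-out -0.0084 to 0.010). Lower calls also appeared with it for Csf1r at 1 h (-0.22 in place of -0.080). The same held at 2 h for Adgre1 (-0.35 in place of -0.052) and Itgam (-0.23 in place of -0.043). Other uncalled marker values that turned sign were Zbtb46 at 1 h with the 18S term (0.011) and in the high 18S libraries (0.10), leave-one-out -0.18 to 0.21, and at 0.5 h (-0.097 to 0.17), Ccr7 at 2 h with median centring (0.0015, leave-one-out -0.11 to 0.034), Adgre1 and Csf1r at 0.5 h (leave-one-out -0.089 to 0.020 and -0.079 to 0.0018) and Il7r at 0 h (-0.094 to 0.044).

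Counts over all genes moved by over 1.5 times in some fits. In the high 18S libraries they were 2994 in place of 4708 between the genotypes at 1 h, 3009 in place of 4970 for LysM-Cre at 1 h, and 2010 in place of 3725 for its step from 0.5 h. With only the groups compared, FosKO at 0.5 h gave 301 in place of 823 (542 without FosKO replicate 3) and its step to 1 h 2471 in place of 3819. The difference in response at 0.5 h gave 16, and 26 with quantile normalisation, 6 with only the groups compared, 25 with the genotype-specific replicate block, 9 in the high 18S libraries, and 9 and 10 without LysM-Cre replicates 3 and 2; at 1 h it gave 169, 112 with only the groups compared and 93 in the high 18S libraries.

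No label says what the replicate numbers stand for, and they were not taken as pairs between the genotypes. Of 12 same-numbered pairs of opposite genotype at the same time, 2 had correlated deviations over 0.1. Of 24 such pairs with different numbers, 8 did (up to 0.627). Some libraries of opposite genotype thus shared deviations that did not follow the number, and the source of these was not tested. Within a genotype, 12 of 36 same-numbered pairs from different times were over 0.1 (up to 0.706), against 4 of 72 with different numbers, and 17 of 24 libraries correlated best with a library of their own number, a hint from the data and not from the design. Genes called between the genotypes at 1 h were 4708, and 4876 with the replicate block. With that block, the Hbegf difference between the genotypes at 1 h was -0.79, and no call of Hbegf, Areg or Vegfa changed with either block. Of the other genes named, Hif1a became a call at 0 h (0.073, adjusted p = 0.0156) and 0.5 h (0.061, adjusted p = 0.0339), Il7r at 0.5 h (-0.11) and 2 h (-0.13), and Vegfb at 1 h (0.14), while Kit at 0 h was no longer called (-0.43, adjusted p = 0.0515). Read numbers of single libraries are not given by the deposited values, and for Areg at 0 h and for Ereg a change below the floor cannot be seen.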
